A study of Mus musculus with 79 samples.

Results

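ATF4 is the transcription factor that switches on the cell's response to amino acid shortage, and 37 genes of that response were followed in cultured mouse Th17 cells. They are ATF4 and its partner regulators (8 genes), stress effectors (5), enzymes of amino acid synthesis (4), amino acid transporters (8) and cytosolic aminoacyl-tRNA synthetases (12). All 37 were among the 20465 genes of the deposited table. Of them, 36 passed the filter on low values of at least 1 TPM, a transcript level corrected for length and library total, in at least 4 of 78 libraries. The gene left out by the filter, CEBPB, averaged between 0.029 and 0.443 TPM over the groups and was not tested.

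T cells carrying the division dye CFSE were driven towards a pathogenic Th17 state (Th17p, with IL1b, IL6 and IL23) or a non-pathogenic one (Th17n, with TGFb and IL6). Cultures of each type received EGCG, a green tea catechin, at 20 µM or its solvent DMSO, and the steroid DHEA at 50 µM or its solvent methanol. RNA came from cells sorted after exactly 1 division (Div.1) and from unsorted cells (Total), which gave 16 groups, with 5 mice per condition according to the series' design text. Each group had 5 libraries, except that both DMSO Div.1 groups had 4. All groups share the dye and in vitro culture; the mouse strain, sex, age and genotype are not given in the sources used here. Going by the labels alone, the Th17n DMSO Div.1 group had 5 libraries, but that of well A4 went against its label and was left out.

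When amino acids run short or the endoplasmic reticulum is stressed, kinases phosphorylate the translation factor eIF2. General protein synthesis then falls while translation of the ATF4 message rises. ATF4 protein, often paired with a C/EBP factor, binds a composite DNA element and raises genes for amino acid synthesis, import and tRNA charging. Because that step is translational, the level of the ATF4 message is not a measure of ATF4 protein, which was not measured here. Activated T cells depend on amino acid import for growth.

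Promoter sequences are shown first because the 4 genes in question carry the largest EGCG changes among members whose start region holds the core of that composite element, TGATGNAA. RefSeq promoter windows (GRCm38.p6, 250 bases before to 50 after the annotated start) could be matched for 28 members by symbol or synonym. The core, searched on both strands, was present for 12 of the 28 members (42.9%), against 1219 of the 27025 genes that have a window in the RefSeq promoter table (4.51%). By role, 5 of 8 tRNA synthetases matched had it, 3 of 8 regulators, 2 of 3 genes of amino acid synthesis, 1 of 4 stress effectors and 1 of 5 transporters. The members were picked as genes of the ATF4 response, so these shares are not a test of the list. A match describes letters in the window and is not evidence of binding. Capitals mark the core, written 5′ to 3′ on the gene's strand. In CHAC1 (chr2:119350992-119351291, plus strand) it begins 193 bases before the start, on the opposite strand. In TRIB3 (chr2:152344011-152344310, minus strand) it begins 14 bases after the start, also on the opposite strand. In NUPR1 (chr7:126625421-126625720, minus strand) it begins 110 bases before the start, again on the opposite strand, and in ASNS (chr6:7693160-7693459, minus strand) 23 bases before it, on the same strand.
CHAC1: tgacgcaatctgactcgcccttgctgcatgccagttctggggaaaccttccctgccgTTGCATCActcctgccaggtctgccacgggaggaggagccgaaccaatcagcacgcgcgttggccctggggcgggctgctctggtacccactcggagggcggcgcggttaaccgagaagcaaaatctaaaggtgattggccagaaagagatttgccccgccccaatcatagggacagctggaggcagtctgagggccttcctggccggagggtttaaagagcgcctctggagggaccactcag
TRIB3: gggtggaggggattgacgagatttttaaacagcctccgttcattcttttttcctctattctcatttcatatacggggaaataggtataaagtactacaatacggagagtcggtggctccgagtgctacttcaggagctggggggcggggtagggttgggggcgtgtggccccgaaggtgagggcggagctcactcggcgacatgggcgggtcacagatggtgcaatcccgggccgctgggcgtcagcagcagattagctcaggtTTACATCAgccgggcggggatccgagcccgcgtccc
NUPR1: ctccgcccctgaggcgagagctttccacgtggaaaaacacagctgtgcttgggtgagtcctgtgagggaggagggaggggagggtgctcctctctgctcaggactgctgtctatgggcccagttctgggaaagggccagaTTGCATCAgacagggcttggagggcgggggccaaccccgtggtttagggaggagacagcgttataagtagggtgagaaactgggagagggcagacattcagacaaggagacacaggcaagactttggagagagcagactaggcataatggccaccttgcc
ASNS: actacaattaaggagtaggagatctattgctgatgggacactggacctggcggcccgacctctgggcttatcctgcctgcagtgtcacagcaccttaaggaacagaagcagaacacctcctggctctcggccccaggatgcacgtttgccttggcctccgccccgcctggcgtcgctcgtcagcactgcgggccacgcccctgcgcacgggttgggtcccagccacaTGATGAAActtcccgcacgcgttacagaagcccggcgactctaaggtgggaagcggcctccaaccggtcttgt

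Levels differed widely between members, on the TPM scale that corrects for transcript length. ATF4 was among the most abundant regulators, with group means from 186 TPM in Th17n DHEA Total cells to 448 TPM in Th17p DMSO Total cells. GARS, the glycyl-tRNA synthetase, lay between 220.4 and 329.6 TPM, and SLC3A2, the heavy chain shared by several amino acid exchangers, between 191 and 301 TPM. SLC7A3, a cationic amino acid transporter, did not exceed a group mean of 0.707 TPM. ATF5 did not exceed 1.62 TPM. Of the 12 synthetases, 10 had their highest group mean in Th17p solvent cells of the Total sort and 2, MARS and WARS, in Th17p methanol Div.1 cells, while the lowest group mean of all 12 was in a group given a compound. The share of all genes with these extremes was not computed.

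Each library had 9338 to 9845 genes at 1 TPM or above, and depth is unknown because TPM keep no read counts. In RNA from bulk cultures, fewer cells of a type and less RNA per cell cannot be told apart. CD3E (89.3 to 174 TPM) and CD4 (67.9 to 186 TPM), the genes of the T cell receptor complex and the helper coreceptor, were present in every library. The sum of 6 markers of CD8 T and NK cells was 4.02 to 27.4 TPM, with CD8A at or below 0.557 TPM. Only 1 of these 6 passed the filter on low values, so the sum is not a level shared by 6 genes. The 4 of 5 myeloid markers in the table summed to at most 1.69 TPM. The 4 B cell markers summed to 0.0825 to 5.11 TPM. LYZ2 was listed at 0 in 73 of 78 libraries and NCR1 in 74. The labels do not say which wells share a mouse, so libraries were compared as unpaired.

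With EGCG, most of these genes fell in Th17p cells, while a few members from several role groups rose. In Th17p Div.1 cells 24 of the 36 members tested fell and 7 rose, against 11.9% and 33.7% of the 10672 genes tested. In Th17p Total cells 27 fell and 5 rose, against 14.9% and 30.1% of genes. A gene was called when its limma p, adjusted over all genes tested, was under 0.05, and a log2 change is the difference in mean log2(TPM + 1), which understates changes at low TPM. The median log2 change of the members was -0.34 in Div.1 and -0.49 in Total cells, beside 0.12 and 0.09 over all genes. When libraries were rescaled by their median ratio, the all-gene median in Div.1 cells moved by -0.10, and 25 members fell and 5 rose there, with 2430 genes higher and 2241 lower, against 3601 and 1270 as deposited. In Total cells the rescaled counts were 28 members lower and 5 higher, with 2506 genes higher and 2256 lower, against 3208 and 1586. The summed level of the 6 CD8 T and NK markers was also higher with EGCG, at 10.1 TPM (8.13 to 11.9) against 6.10 TPM (4.02 to 7.98) in Th17p Total cells. Only 1 of the 6 passed the filter, with a log2 change of 0.69 there. The part of these markers in the changes was not tested.

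Among the regulators, ATF4 itself changed little. In Th17p Div.1 cells it had 444, 429, 431, 447 and 427 TPM with EGCG and 359.6, 403, 356 and 401 TPM with DMSO. The groups did not overlap, and the log2 change was 0.20 (SE 0.085, adjusted p 0.0475). This call was lost without the DMSO library of column 1 or 3, without any EGCG library of columns 1 to 5, and after rescaling, where the change was 0.08. In Th17p Total cells ATF4 had 402, 410.3, 419.9, 441 and 406 TPM with EGCG and 407, 449.9, 398, 516 and 468 TPM with DMSO. These groups overlapped, and the change of -0.10 did not pass the test (SE 0.080, adjusted p 0.323).

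TRIB3, a pseudokinase that is a target and a feedback inhibitor of ATF4, fell in both sorts. In Th17p Div.1 cells it had 1.24, 1.09, 2.05, 1.74 and 1.603 TPM with EGCG and 6.302, 13.2, 7.03 and 15.3 TPM with DMSO. In the Total sort it had 1.73, 1.31, 1.69, 1.88 and 2.35 TPM with EGCG and 11.1, 14.6, 8.74, 32.7 and 21.98 TPM with DMSO. Every EGCG library was below every DMSO library in both sorts, and the EGCG libraries lay much closer together. The log2 change was -2.10 (SE 0.28, adjusted p 5.91e-09) in Div.1 and -2.62 (SE 0.27, adjusted p 6.86e-13) in Total cells.

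NUPR1, a small stress-induced chromatin protein, was close to absent with EGCG. Among Th17p Total cells it had 0, 0.1904, 0, 0.416 and 0.382 TPM with EGCG and 2.596, 7.66, 2.07, 13.7 and 4.36 TPM with DMSO, a log2 change of -2.33 (SE 0.31, adjusted p 2.03e-09). In Th17p Div.1 cells it was listed at 0 in all 5 EGCG libraries. The mean over the DMSO Div.1 libraries was 1.91 ± 0.988 TPM (SD, n = 4), so the gene was low there too.

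DDIT3, which encodes the stress factor CHOP, fell in both Th17p sorts. In Div.1 cells it had 8.05, 12.9, 13.5, 14.3 and 9.06 TPM with EGCG and 22.4, 26.7, 20.4 and 30.1 TPM with DMSO. In Total cells it had 15.4, 15.2, 17.8, 17.3 and 22.04 TPM with EGCG and 30.4, 34.8, 23.5, 55.1 and 48.7 TPM with DMSO. The groups did not overlap in either sort, with log2 changes of -1.06 (SE 0.24, adjusted p 0.000231) and -1.04 (SE 0.23, adjusted p 0.000147). DDIT3 (mm10, chromosome 10, 127290774 to 127296288, plus strand) and MARS (127296221 to 127311786, minus strand) overlap at their 3′ ends, and the sources used here do not say whether reads were assigned by strand. ATF3, another stress-induced factor, moved the other way. In the Total sort it had 2.26, 8.12, 4.13, 4.097 and 9.79 TPM with EGCG and 1.53, 1.78, 1.33, 5.25 and 2.45 TPM with DMSO, with 2 DMSO libraries inside the EGCG range, and the log2 change was 0.91 (SE 0.27, adjusted p 0.00448).

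The stress effectors split into both directions. CHAC1, an enzyme that degrades glutathione, had 1.09, 0.591, 0.545, 0.752 and 1.16 TPM with EGCG and 9.52, 13.6, 6.35 and 15.6 TPM with DMSO in Th17p Div.1 cells. Among Th17p Total cells it had 1.09, 0.539, 0.533, 0.504 and 0.566 TPM with EGCG and 10.9, 20.5, 10.9, 31.2 and 21.05 TPM with DMSO. Every EGCG library was far below every DMSO library. The log2 change was -2.69 (SE 0.43, adjusted p 3.84e-07) in Div.1 and -3.500 (SE 0.41, adjusted p 5.57e-11) in Total cells, and in Total cells the mean TPM was 29.2-fold lower.

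SESN2, a sestrin that restrains mTORC1 when leucine is short and is also a p53 target, rose instead. It had 37.5, 38.998, 38.7, 36.9 and 42.3 TPM with EGCG and 10.4, 11.5, 10.4 and 9.95 TPM with DMSO in Th17p Div.1 cells. In the Total sort it had 34.8, 39.1, 35.4, 38.9 and 42.3 TPM with EGCG and 11.1, 11.4, 7.2997, 11.1 and 15.3 TPM with DMSO. Both sorts were separated by a wide gap, with log2 changes of 1.79 (SE 0.12, adjusted p 5.45e-20) and 1.70 (SE 0.12, adjusted p 2.31e-20). DDIT4 (REDD1), another inhibitor of mTORC1, behaved likewise. It had 29.1, 38.9, 40.3, 43.5 and 45.3 TPM with EGCG and 6.61, 12.3, 13.03 and 13.8 TPM with DMSO in Div.1 cells, and 29.6, 34.04, 42.95, 37.9 and 51.5 TPM with EGCG and 11.1, 12.6, 13.3, 16.96 and 17.8 TPM with DMSO in Total cells. Its changes were 1.73 (SE 0.20, adjusted p 4.24e-11) in Div.1 and 1.38 (SE 0.19, adjusted p 5.41e-09) in Total cells, and no library overlapped. EIF4EBP1, which holds back cap-dependent translation, fell by 0.48 in Div.1 and by 0.86 in Total cells.

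**Figure D1:**
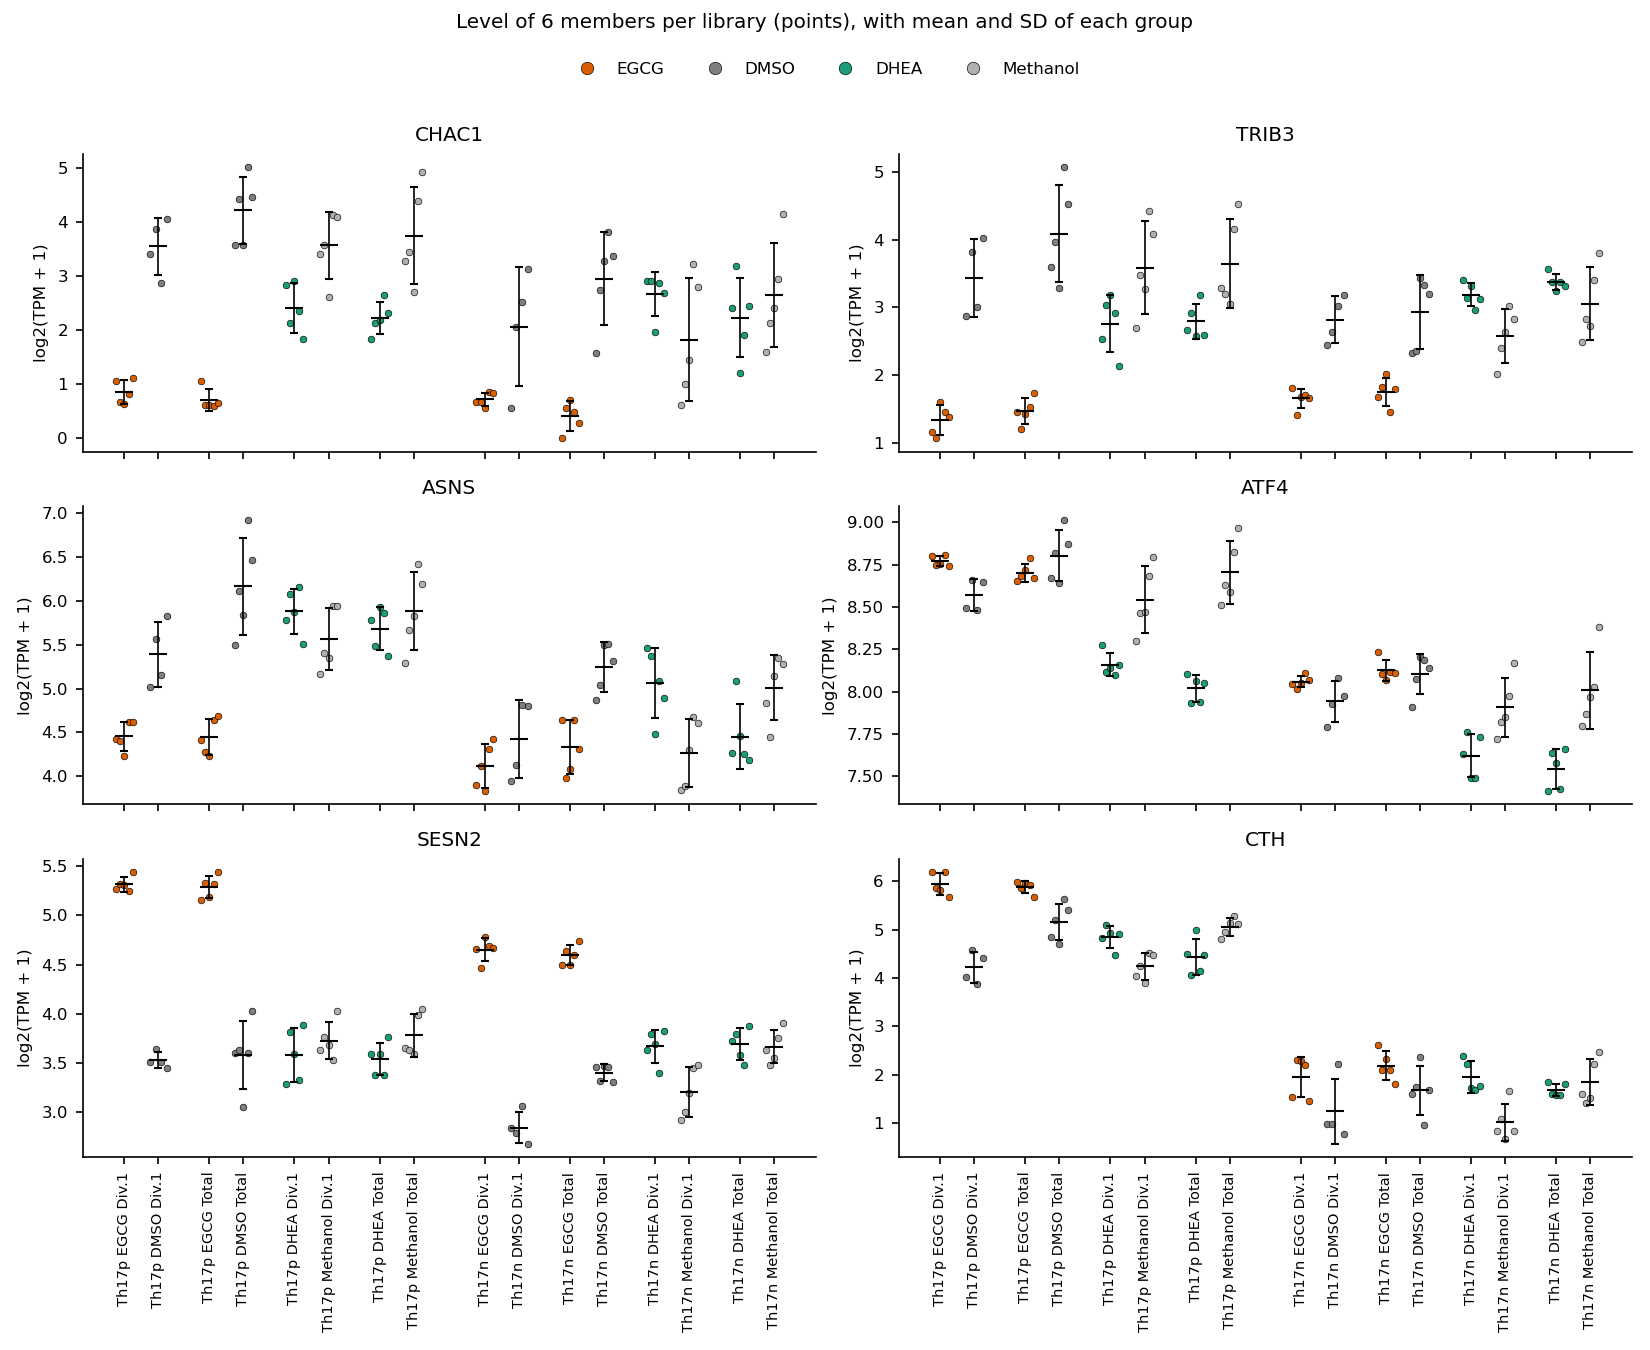
Level of CHAC1, TRIB3, ASNS, ATF4, SESN2 and CTH in log2(TPM + 1) in each library of the 16 groups, with compound groups to the left of their solvent; points are libraries, bars the group mean and SD. EGCG libraries of CHAC1 and TRIB3 sit near the floor of their panels, ATF4 is lower with DHEA than with methanol in all 4 settings, and every Th17p library of CTH is above every Th17n library.

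Of the enzymes of amino acid synthesis, ASNS, which makes asparagine, had 20.4, 20.1, 17.8, 23.5 and 23.5 TPM with EGCG and 31.4, 46.3, 34.7 and 55.6 TPM with DMSO in Th17p Div.1 cells. Among Th17p Total cells it had 20.2, 18.3, 17.8, 24.03 and 24.7 TPM with EGCG and 44.2, 68.4, 56.1, 121 and 87.2 TPM with DMSO. The EGCG libraries lay within a narrow band below every DMSO library, with log2 changes of -0.93 (SE 0.23, adjusted p 0.000505) and -1.72 (SE 0.22, adjusted p 5.09e-10). CTH, which makes cysteine from cystathionine, went up. In the Total sort it had 62.4, 57.3, 60.8, 59.7 and 49.9 TPM with EGCG and 27.9, 35.7, 25.1, 48.4 and 41.2 TPM with DMSO. The groups did not overlap, the log2 change was 0.72 (SE 0.22, adjusted p 0.0048), and in Div.1 cells it was 1.72. PYCR1, a mitochondrial enzyme of proline synthesis, had 0.998, 0.566, 0.747, 0.546 and 1.79 TPM with EGCG and 2.11, 7.65, 5.49, 5.42 and 6.01 TPM with DMSO in Th17p Total cells. All EGCG libraries were lower, with a log2 change of -1.68 (SE 0.53, adjusted p 0.00733); in Div.1 cells its change of 0.34 did not pass the test. ALDH18A1, which starts proline synthesis, fell by 0.45 in Div.1 and by 0.60 in Total cells.

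Of the 8 transporters, 5 fell and 1 rose in each Th17p sort. SLC7A5 and SLC3A2, the light and heavy chains of the large neutral amino acid exchanger LAT1, fell by 0.61 and 0.22 in Div.1 cells, and by 0.80 and 0.33 in Total cells. SLC1A4, a serine and alanine exchanger, fell by 0.94 and 1.20. SLC38A2, the adaptive glutamine and alanine importer SNAT2, fell by 0.44 and 0.50. The member that rose was SLC1A5, the glutamine exchanger ASCT2, by 0.30 in Div.1 and 0.41 in Total cells. SLC6A9, a glycine transporter, averaged 0.387 ± 0.266 TPM with EGCG and 2.04 ± 1.48 TPM with DMSO in Total cells (SD, n = 5 each). It was called lower in both sorts, but in Div.1 cells the adjusted p became 0.0538 with the well column as a replicate block, and in Total cells 0.0697 without the DMSO library of column 4. In Div.1 cells the call was also lost without any of 7 of the 9 libraries.

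The tRNA synthetases, which load amino acids onto their tRNAs, all fell in Th17p Total cells (12 of 12). In Th17p Div.1 cells 11 of 12 fell, the exception being CARS at -0.57 (adjusted p 0.0793). The changes ran from -0.61 to -0.18 in Div.1 and from -1.28 to -0.20 in Total cells, with the smallest fall in Total cells in WARS. CARS, the cysteinyl-tRNA synthetase, had 26.8, 9.202, 15.7, 16.9 and 18.4 TPM with EGCG and 46.3, 35.6, 42.1, 45.4 and 38.8 TPM with DMSO in Total cells. These groups did not overlap, and the log2 change was -1.28 (SE 0.26, adjusted p 3.17e-05). The summed level of all 12 was 1307 ± 43.6 TPM (SD, n = 5, 1268 to 1379) with EGCG and 1741 ± 55.5 TPM (SD, n = 4, 1688 to 1802) with DMSO in Div.1 cells. For Total cells it was 1253 ± 39.7 TPM (SD, n = 5, 1220.2 to 1318) with EGCG and 1858 ± 127 TPM (SD, n = 5, 1705 to 2051) with DMSO. The highest EGCG library stood below the lowest DMSO library in each sort.

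In Th17n cells fewer members passed the test with EGCG. In Th17n Div.1 cells 12 of 36 fell and 4 rose, against 6.77% and 28.1% of genes. In Th17n Total cells 18 fell and 2 rose, against 13.5% and 21.7% of genes. The median change was -0.06 in Div.1 and -0.25 in Total cells, beside 0.11 and 0.05 over all genes. After rescaling, the all-gene median in Div.1 cells moved by -0.11, with 16 members lower and 3 higher, and with 1642 genes higher and 1671 lower, against 2999 and 723 as deposited. In Total cells rescaling gave 21 members lower and 2 higher, with 1908 genes higher and 1912 lower, against 2319 and 1441. The CD8 T and NK marker sum was 6.26 TPM (5.37 to 7.24) with EGCG and 4.895 TPM (4.39 to 5.63) with DMSO in Th17n Total cells, and 7.28 TPM (6.51 to 8.04) with EGCG and 7.803 TPM (6.47 to 8.61) with DMSO in Div.1 cells. CD79B, a subunit of the B cell receptor, averaged 1.46 TPM with EGCG and 0.754 TPM with DMSO in Th17n Total cells, a log2 change of 0.50 (limma adjusted p 0.0402). The part of both in the changes was not tested.

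TRIB3 fell in Th17n cells as well. In Th17n Div.1 cells it had 2.51, 1.67, 2.21, 2.26 and 2.16 TPM with EGCG and 4.44, 5.21, 7.102 and 8.12 TPM with DMSO, and in Th17n Total cells 2.202, 2.53, 3.05, 1.73 and 2.48 TPM with EGCG and 4.01, 4.098, 9.85, 9.11 and 8.18 TPM with DMSO. The groups did not overlap in either sort, with log2 changes of -1.17 (SE 0.28, adjusted p 0.00081) and -1.18 (SE 0.27, adjusted p 0.000358). CHAC1 had 0.592, 0.591, 0.476, 0.816 and 0.776 TPM with EGCG and 0.468, 3.15, 4.73 and 7.72 TPM with DMSO in Div.1 cells. The DMSO library of column 1 lay below the EGCG libraries, the other DMSO libraries above them, and the change was -1.34 (SE 0.43, adjusted p 0.0115). Without the DMSO library of column 4 this call was lost, at -0.99 (adjusted p 0.0969). In Total cells CHAC1 had 0, 0.483, 0.623, 0.408 and 0.2104 TPM with EGCG and 1.97, 5.66, 8.72, 13.01 and 9.26 TPM with DMSO, without overlap, a change of -2.54 (SE 0.41, adjusted p 9.42e-07).

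SESN2 rose in both Th17n sorts. It had 24.3, 21.04, 26.5, 24.8 and 24.4 TPM with EGCG and 6.17, 5.897, 7.37 and 5.41 TPM with DMSO in Div.1 cells, and 21.6, 23.9, 21.6, 23.2 and 25.8 TPM with EGCG and 10.01, 8.96, 10.1, 9.98 and 8.92 TPM with DMSO in Total cells. Every EGCG library was above every DMSO library, with changes of 1.81 (SE 0.12, adjusted p 1.21e-19) and 1.19 (SE 0.12, adjusted p 3.91e-13). SLC1A5 had 187, 187, 186, 189.8 and 201 TPM with EGCG and 179, 166, 158, 150.2 and 166 TPM with DMSO in Total cells, a small change without overlap of 0.21 (SE 0.053, adjusted p 0.00097). DDIT4 had 11.05, 17.9, 24.6, 20.1 and 23.4 TPM with EGCG and 9.61, 9.61, 11.8 and 10.3 TPM with DMSO in Div.1 cells, where 1 EGCG library fell inside the DMSO range, and it rose by 0.81 (SE 0.20, adjusted p 0.000943).

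ATF4 did not pass the test in Th17n cells. It had 263, 258, 264, 275 and 267 TPM with EGCG and 220.4, 242, 269.9 and 250.1 TPM with DMSO in Div.1 cells, and 299.7, 274, 268, 276 and 275 TPM with EGCG and 239.7, 269, 294, 289.8 and 281 TPM with DMSO in Total cells. The groups overlapped, and the changes were 0.12 (SE 0.085, adjusted p 0.312) and 0.02 (SE 0.080, adjusted p 0.86). ASNS had 13.9, 16.3, 13.3, 18.9 and 20.4 TPM with EGCG and 14.5, 16.5, 27.2 and 26.8 TPM with DMSO in Div.1 cells, with overlap and a change of -0.31 (SE 0.23, adjusted p 0.315) that did not pass. In Total cells ASNS had 24.01, 14.8, 15.9, 23.9 and 18.9 TPM with EGCG and 28.3, 31.96, 44.1, 44.6 and 38.8 TPM with DMSO, and fell by 0.91 (SE 0.22, adjusted p 0.000528) without overlap. DDIT3 had 12.9, 11.3, 13.5, 11.3 and 5.25 TPM with EGCG and 17.8, 13.8, 17.2 and 25.3 TPM with DMSO in Div.1 cells, and fell by 0.75 (SE 0.24, adjusted p 0.0125). Leaving out the low EGCG library of column 5 or the high DMSO library of column 4 ended that call, at -0.53 (adjusted p 0.0858) and -0.60 (adjusted p 0.0777). In Total cells DDIT3 had 10.3, 10.5, 18.1, 13.5 and 14.9 TPM with EGCG and 10.8, 12.3, 17.8, 18.8 and 24.9 TPM with DMSO, overlapping, and its change of -0.28 (SE 0.23, adjusted p 0.366) did not pass.

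Of the synthetases, 5 of 12 fell with EGCG in Th17n Div.1 cells (AARS, CARS, MARS, NARS and TARS) and 10 of 12 in Th17n Total cells. Their summed level was 1219 ± 19.8 TPM (SD, n = 5, 1194 to 1246) with EGCG and 1324 ± 49.7 TPM (SD, n = 4, 1276 to 1391) with DMSO in Div.1 cells. In Total cells it was 1268 ± 42.3 TPM (SD, n = 5, 1203 to 1306) with EGCG and 1536 ± 22.9 TPM (SD, n = 5, 1497 to 1558) with DMSO. The EGCG libraries were below the DMSO libraries in each sort. Over all 4 EGCG settings, the members lower in every one were NUPR1, TRIB3, CHAC1, ALDH18A1, SLC7A5, SLC3A2, AARS, MARS, NARS and TARS. SESN2 and SLC1A5 were higher in every one. The share of all genes called alike in all 4 was not computed. In Th17n Div.1 cells the calls of CARS, NARS, NUPR1 and SLC3A2 were each lost without at least 1 library, as were those of LARS, SARS and SLC3A2 in Th17n Total cells, and rescaling ended that of SLC1A5 in Th17n Div.1 cells.

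**Figure D2:**
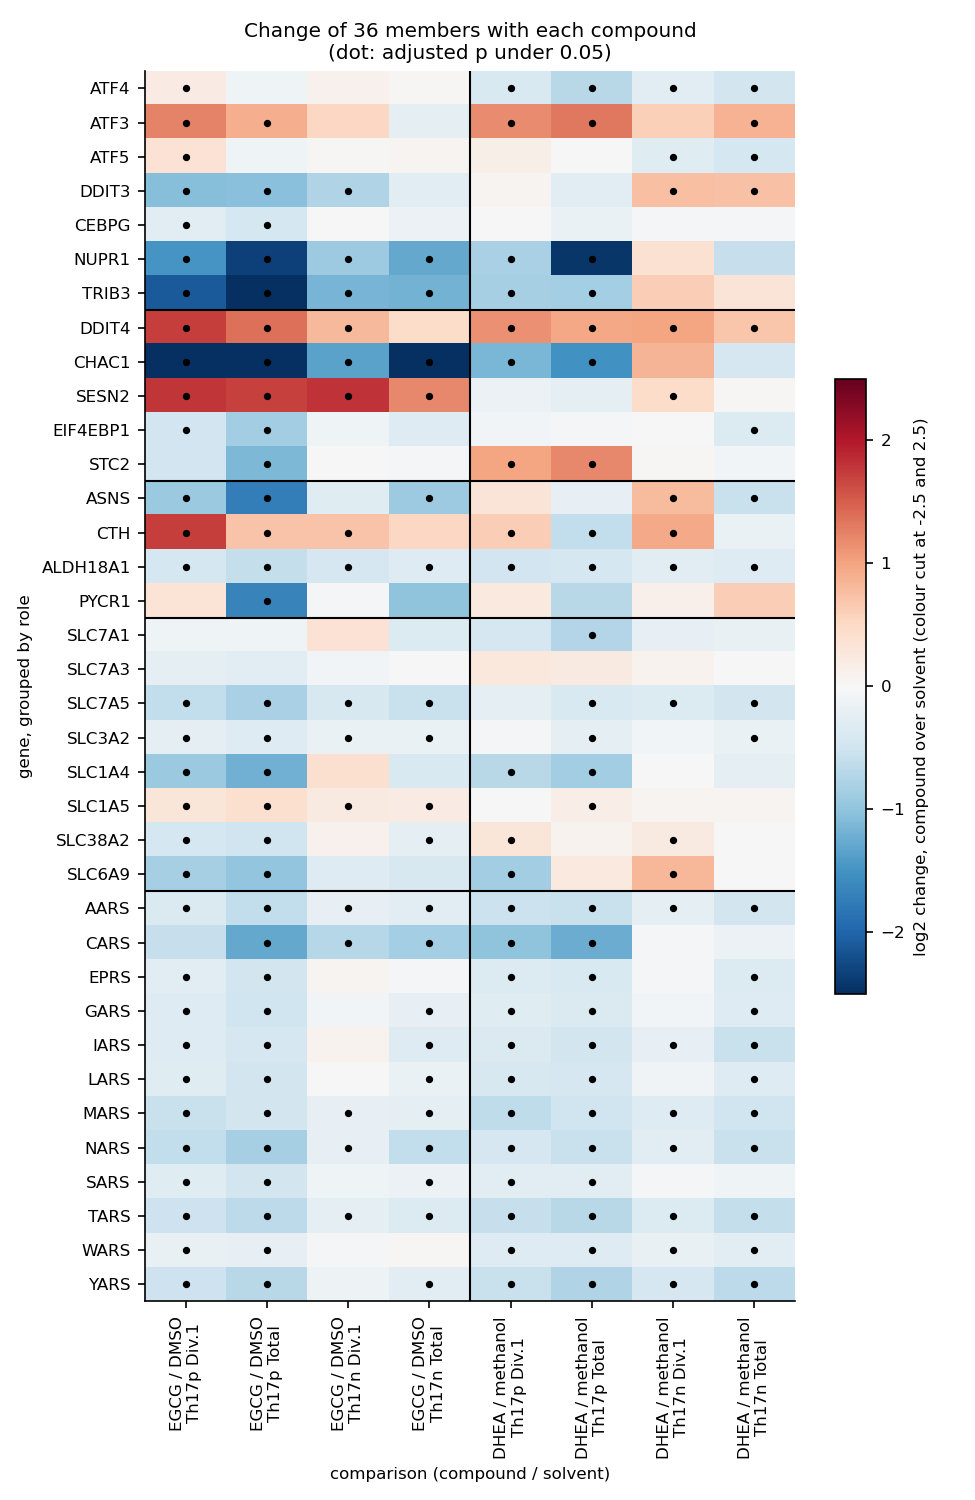
Log2 change of the 36 members tested (rows, by role) for each compound over solvent (columns, by cell type and sort), on a colour scale cut at -2.5 and 2.5; a dot marks an adjusted p under 0.05. The synthetases at the bottom are mostly blue with both compounds, SESN2 is red with EGCG, and with DHEA DDIT3 carries a dot in the Th17n columns only.

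Whether EGCG acted differently on the cell types was tested as the EGCG change in Th17p minus that in Th17n. In Div.1 cells 12 members passed, 2 higher and 10 lower, against 17.5% of genes in either direction. In Total cells 18 passed, 3 higher and 15 lower, against 19.9% of genes. Of the lower ones 8 and 9 were synthetases, which fell more in Th17p cells. Rescaled, Total cells had 18 members lower and 3 higher, with 1206 genes higher and 1124 lower against 1321 and 806 as deposited. TRIB3 differed by -1.44 (SE 0.38, adjusted p 0.00358) in Total cells and DDIT4 by 0.93 (SE 0.27, adjusted p 0.00723). SLC1A4 differed by -1.33 (SE 0.26, adjusted p 0.000104) in Div.1 cells, where its change was -0.94 in Th17p and 0.40 in Th17n cells. With EGCG the summed synthetase levels of Th17p and Th17n Total cells overlapped, whereas with DMSO every Th17p library was above every Th17n library.

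The EGCG change was also compared between the sorts. In Th17p cells no member passed the limma test of the Div.1 change minus the Total change, against 2.57% of genes. At an unadjusted limma p under 0.05 there were 12, all with a higher value in Div.1. In addition, 3 passed when the groups were fitted alone and 2 with the well column as a block. The shares of all genes in these settings were not computed, and 2.57% does not apply to them. Over all genes rescaling moved the split to 127 higher and 246 lower, against 144 and 130. In Th17n cells 5 members passed, all higher, against 13.3% of genes, among them SESN2 with 0.62 (SE 0.17, adjusted p 0.00783). Rescaling gave 4 higher and 1 lower, with 784 genes higher and 715 lower against 1150 and 270. Without the Th17n DMSO Div.1 library of column 1 or of column 4, 3 passed. In Th17p cells 1 passed without the DMSO Total library of column 3.

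With DHEA, in Th17p cells all 12 cytosolic synthetases among the members and the ATF4 message fell, and ATF3 and DDIT4 rose. In Th17p Div.1 cells 19 of 36 members fell and 5 rose, against 19.2% and 18.1% of genes. In Th17p Total cells 22 fell and 4 rose, against 26.8% and 20.9% of genes. The median change was -0.31 in Div.1 and -0.39 in Total cells, beside 0.0045 and -0.017 over all genes. The CD8 T and NK marker sum was 19.4 TPM (14.7 to 27.4) with DHEA and 10.7 TPM (9.63 to 12.5) with methanol in Th17p Div.1 cells, and 19.2 TPM (16.9 to 23.7) with DHEA and 9.14 TPM (7.23 to 10.5) with methanol in Total cells. CD79B averaged 1.15 TPM with DHEA and 0.349 TPM with methanol in Th17p Div.1 cells (log2 change 0.68), 1.27 and 0.23 TPM in Th17p Total cells (0.84), 2.92 and 0.861 TPM in Th17n Div.1 cells (1.09), and 2.799 and 0.871 TPM in Th17n Total cells (0.93), with limma adjusted p of at most 0.00425. The part of these markers in the changes was not tested.

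ATF4 fell in both Th17p sorts. In Div.1 cells it had 309, 277, 281, 273 and 285 TPM with DHEA and 314, 352, 353, 411 and 444 TPM with methanol. For Total cells it had 275, 243, 267, 244 and 264 TPM with DHEA and 364, 396, 384, 452 and 498 TPM with methanol. All DHEA libraries were below all methanol libraries, with log2 changes of -0.38 (SE 0.080, adjusted p 8.23e-05) and -0.69 (SE 0.080, adjusted p 5.3e-11). DDIT3, by contrast, did not pass. It had 17.3, 26.8, 24.96, 26.3 and 27.5 TPM with DHEA and 21.8, 15.7, 17.4, 31.9 and 33.7 TPM with methanol in Div.1 cells, and 27.3, 27.2, 24.2, 18.2 and 20.5 TPM with DHEA and 25.6, 23.3, 23.8, 29.5 and 42.9 TPM with methanol in Total cells. The groups overlapped, with changes of 0.07 (SE 0.23, adjusted p 0.844) and -0.27 (SE 0.23, adjusted p 0.348).

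Targets of ATF4 were lower in part. NUPR1 had 0.835, 0.388, 0.881, 0.467 and 0 TPM with DHEA and 5.82, 4.62, 5.75, 9.42 and 10.6 TPM with methanol in Th17p Total cells, without overlap, a change of -2.42 (SE 0.31, adjusted p 5.56e-10). TRIB3 had 5.38, 6.596, 5.001, 8.07 and 5.06 TPM with DHEA and 8.76, 8.204, 7.28, 16.9 and 22.04 TPM with methanol. The highest DHEA library of TRIB3 lay above the lowest methanol library, and the change of -0.85 (SE 0.27, adjusted p 0.00637) was lost without the methanol library of column 10, at -0.63 (adjusted p 0.0530). CHAC1 had 6.09, 3.37, 6.54, 4.09 and 2.56 TPM with DHEA and 9.55, 10.9, 5.11, 16.6 and 16.1 TPM with methanol in Div.1 cells. The groups overlapped, and the change of -1.15 (SE 0.41, adjusted p 0.0207) was lost without the DHEA library of column 10 or the methanol library of column 9 or 10. In Total cells CHAC1 had 2.59, 3.37, 3.56, 5.29 and 3.95 TPM with DHEA and 8.72, 9.84, 5.47, 19.8 and 29.5 TPM with methanol, without overlap, and fell by 1.52 (SE 0.41, adjusted p 0.00134).

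ASNS did not pass the test in Th17p cells with DHEA. It had 53.9, 66.6, 57.7, 70.4 and 44.5 TPM with DHEA and 35.005, 41.5, 39.8, 60.2 and 60.4 TPM with methanol in Div.1 cells, and 53.8, 43.8, 60.1, 57.1 and 40.3 TPM with DHEA and 38.1, 50.03, 55.97, 84.4 and 72.4 TPM with methanol in Total cells. The groups overlapped, with changes of 0.32 (SE 0.22, adjusted p 0.256) and -0.20 (SE 0.22, adjusted p 0.481). CTH had 27.5, 33.02, 29.6, 21.3 and 29.003 TPM with DHEA and 15.4, 18.1, 13.9, 21.8 and 21.4 TPM with methanol in Div.1 cells, where it rose by 0.61 (SE 0.22, adjusted p 0.0213). That call was lost without the DHEA library of column 7 or the methanol library of column 6 or 8. In Total cells CTH went the other way, with a change of -0.62 that was lost without the DHEA library of column 7, at -0.53 (adjusted p 0.0537). DDIT4 rose in both sorts. It had 27.1, 26.3, 31.4, 32.1 and 35.6 TPM with DHEA and 11.6, 11.2, 14.3, 12.4 and 16.8 TPM with methanol in Div.1 cells, and 27.1, 27.3, 33.9, 31.4 and 34.3 TPM with DHEA and 13.6, 12.2, 15.9, 15.9 and 19.5 TPM with methanol in Total cells. No library overlapped, with changes of 1.15 (SE 0.19, adjusted p 9.54e-07) and 0.96 (SE 0.19, adjusted p 1.59e-05). ATF3 rose by 1.17 and 1.32, and STC2, a secreted stress protein, by 0.98 and 1.21. Both were low with methanol. In Total cells ATF3 ran from 0.656 to 1.76 TPM with methanol and from 2.41 to 7.46 TPM with DHEA. STC2 ran from 0.244 to 1.68 TPM and from 1.52 to 4.01 TPM in the same order, with overlap.

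Among the transporters, SLC1A4 had 4.103, 4.43, 3.27, 5.69 and 3.43 TPM with DHEA and 6.61, 7.21, 7.14, 9.83 and 11.9 TPM with methanol in Th17p Total cells, without overlap, and fell by 0.87 (SE 0.17, adjusted p 2.52e-05). SLC1A5 had 226, 229, 219, 222 and 239 TPM with DHEA and 185, 201, 196, 208 and 230.3 TPM with methanol. Its groups overlapped, and the rise of 0.16 (SE 0.053, adjusted p 0.0111) was lost without the methanol library of column 6, at 0.12 (adjusted p 0.0616). All 12 synthetases fell in Th17p cells of both sorts with DHEA, by 1.01 to 0.28 in Div.1 and by 1.24 to 0.27 in Total cells. CARS had 25.5, 20.8, 11.8, 20.4 and 13.5 TPM with DHEA and 41.2, 24.7, 33.2, 47.9 and 40.6 TPM with methanol in Div.1 cells, and 14.3, 13.4, 15.7, 15.1 and 20.1 TPM with DHEA and 35.6, 41.6, 38.2, 44.2 and 32.3 TPM with methanol in Total cells. It overlapped by 1 library in Div.1 cells and not in Total cells, with changes of -1.01 (SE 0.26, adjusted p 0.00117) and -1.24 (SE 0.26, adjusted p 4.28e-05). YARS, the tyrosyl-tRNA synthetase, had 84.1, 82.5, 82.99, 84.3 and 81.3 TPM with DHEA and 129.8, 137, 128, 152 and 154 TPM with methanol in Total cells, a wide separation with a change of -0.75 (SE 0.054, adjusted p 6.78e-19). The summed synthetase level was 1345 ± 62.5 TPM (SD, n = 5, 1296 to 1445) with DHEA and 1821 ± 107 TPM (SD, n = 5, 1685 to 1939) with methanol in Div.1 cells, and 1333 ± 38.5 TPM (SD, n = 5, 1277 to 1369) with DHEA and 1883 ± 167 TPM (SD, n = 5, 1686 to 2067) with methanol in Total cells.

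In Th17n Div.1 cells 11 of 36 members fell and 7 rose with DHEA, against 14.6% and 22.1% of genes. In Th17n Total cells 17 fell and 3 rose, against 25.3% and 20.8% of genes. The median change was -0.04 in Div.1 and -0.25 in Total cells, beside 0.048 and -0.0077 over all genes. The CD8 T and NK marker sum averaged 12.3 TPM with DHEA and 7.75 TPM with methanol in Div.1 cells, and 10.6 TPM with DHEA and 6.53 TPM with methanol in Total cells, and its part in the changes was not tested. ATF4 had 198, 216, 179, 179 and 212 TPM with DHEA and 209, 225, 229.5, 250.2 and 287 TPM with methanol in Div.1 cells, and 169, 198, 189.9, 171 and 201 TPM with DHEA and 221, 232, 249, 259.7 and 332 TPM with methanol in Total cells. It fell by 0.28 (SE 0.080, adjusted p 0.00343) with a slight overlap, and by 0.46 (SE 0.080, adjusted p 1.64e-06) without overlap.

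DDIT3 rose in Th17n cells while ATF4 fell. It had 23.1, 22.1, 34.1, 19.9 and 27.3 TPM with DHEA and 7.63, 11.9, 18.4, 19.96 and 17.4 TPM with methanol in Div.1 cells. In Total cells it had 35.2, 24.04, 26.3, 35.1 and 29.3 TPM with DHEA and 19.7, 10.2, 17.3, 20.7 and 22.6 TPM with methanol. The Total groups did not overlap, and the changes were 0.76 (SE 0.23, adjusted p 0.00663) and 0.73 (SE 0.23, adjusted p 0.00673). The Div.1 call was lost without the methanol library of column 6, at 0.55 (adjusted p 0.0595), and the Total call without that of column 7, at 0.55 (adjusted p 0.0537). DDIT4 rose in both sorts too. It had 15.2, 20.7, 23.4, 23.1 and 25.3 TPM with DHEA and 8.83, 8.84, 9.24, 10.5 and 14.3 TPM with methanol in Div.1 cells, without overlap, and 12.5, 16.02, 17.3, 17.2 and 22.2 TPM with DHEA and 8.698, 8.29, 8.27, 12.6 and 13.5 TPM with methanol in Total cells, where the groups overlapped. The changes were 0.99 (SE 0.19, adjusted p 1.75e-05) and 0.69 (SE 0.19, adjusted p 0.0018).

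ASNS moved in opposite directions in the Th17n sorts. In Div.1 cells it had 43.3, 40.5, 21.3, 33.1 and 28.6 TPM with DHEA and 13.4, 13.8, 18.8, 24.5 and 23.4 TPM with methanol, and rose by 0.80 (SE 0.22, adjusted p 0.00227), with 1 DHEA library inside the methanol range. For Total cells it had 18.3, 32.9, 21.03, 18.1 and 17.2 TPM with DHEA and 27.5, 20.8, 34.3, 39.7 and 37.7 TPM with methanol, and fell by 0.56 (SE 0.22, adjusted p 0.0284). The Total groups overlapped, and that call was lost without the DHEA library of column 6, 9 or 10 or the methanol library of column 8, 9 or 10. CHAC1 did not pass in either sort. It had 6.499, 6.45, 2.899, 6.295 and 5.42 TPM with DHEA and 0.539, 1.002, 1.71, 8.31 and 5.95 TPM with methanol in Div.1 cells, and 4.29, 8.03, 1.32, 2.76 and 4.41 TPM with DHEA and 2.03, 3.402, 4.29, 6.702 and 16.7 TPM with methanol in Total cells. The groups overlapped in both sorts, and the methanol libraries varied widely, with changes of 0.85 (SE 0.41, adjusted p 0.0984) and -0.42 (SE 0.41, adjusted p 0.427).

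Of the synthetases, 7 of 12 fell in Th17n Div.1 cells and 10 of 12 in Th17n Total cells with DHEA. YARS had 73.1, 74.9, 63.5, 64.8 and 68.5 TPM with DHEA and 92.5, 89.96, 90.9, 90.7 and 101 TPM with methanol in Div.1 cells, and 71.6, 68.2, 69.8, 58.7 and 68.97 TPM with DHEA and 98.6, 103, 104, 104 and 126 TPM with methanol in Total cells. No library overlapped, with changes of -0.43 (SE 0.054, adjusted p 1.82e-09) and -0.66 (SE 0.054, adjusted p 2.18e-16). TARS, the threonyl-tRNA synthetase, had 116, 129, 121, 110.3 and 121 TPM with DHEA and 169, 176, 182, 178 and 205 TPM with methanol in Total cells, also without overlap, and fell by 0.60 (SE 0.054, adjusted p 4.96e-15). The summed level was 1204 ± 68.9 TPM (SD, n = 5, 1118 to 1272) with DHEA and 1382 ± 88.97 TPM (SD, n = 5, 1288 to 1513) with methanol in Div.1 cells, and 1145 ± 53.5 TPM (SD, n = 5, 1076 to 1197) with DHEA and 1549.7 ± 122 TPM (SD, n = 5, 1471 to 1765) with methanol in Total cells. SLC7A5 had 4.46, 5.12, 3.42, 5.21 and 4.303 TPM with DHEA and 5.38, 5.61, 6.39, 6.34 and 6.07 TPM with methanol in Div.1 cells, and fell by 0.35 (SE 0.11, adjusted p 0.00669) without overlap. Over all 4 DHEA settings, the members lower in every one were ATF4, ALDH18A1, AARS, IARS, MARS, NARS, TARS, WARS and YARS. DDIT4 was higher in every one, and ASNS, CTH and SLC6A9 were called in both directions. The shares of all genes called in these ways were not computed.

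**Figure D3:**
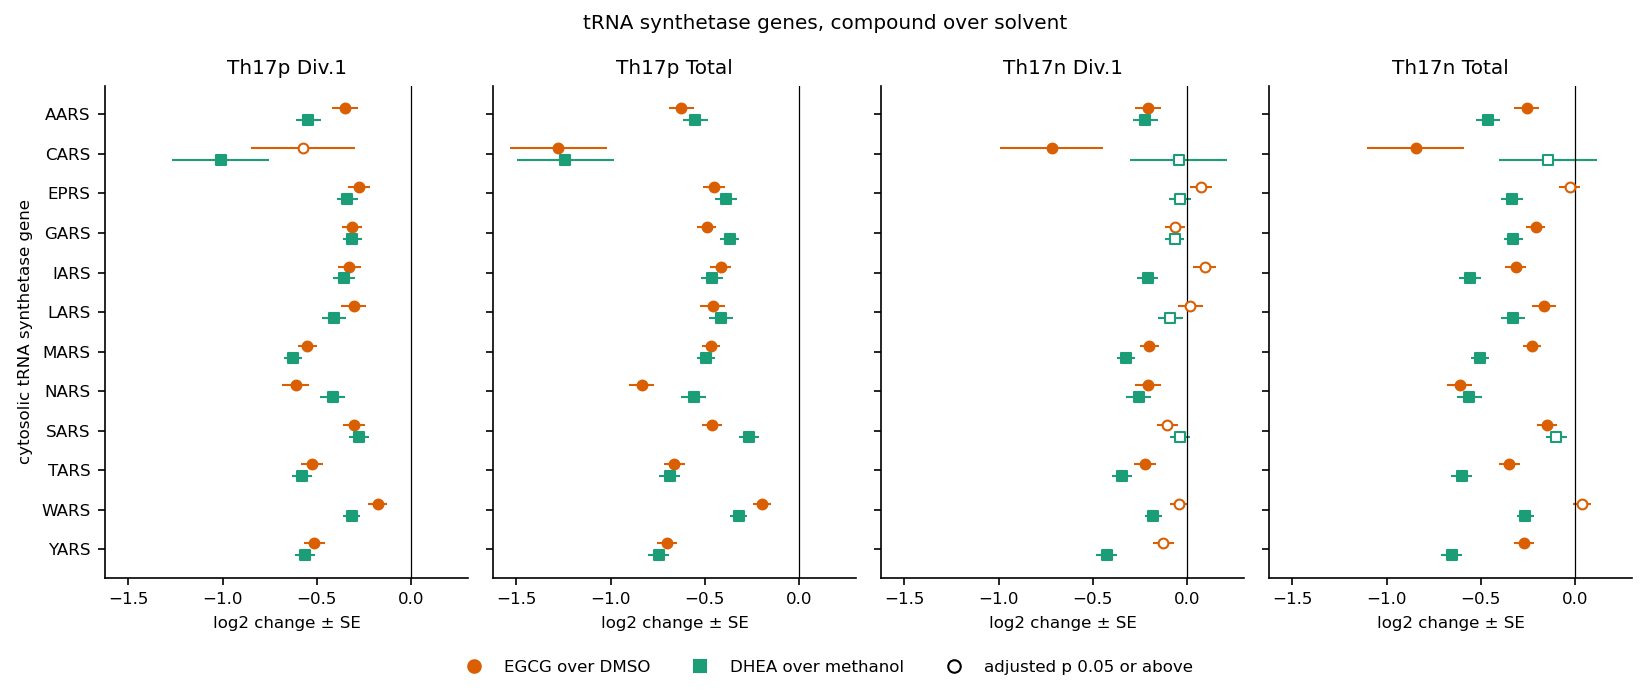
Log2 change ± SE of the 12 cytosolic tRNA synthetase genes with EGCG over DMSO (circles) and DHEA over methanol (squares) in each cell type and sort; open symbols did not pass the test. All points lie left of 0 in Th17p cells, and in Th17n Div.1 cells 5 EGCG and 7 DHEA points are filled.

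The DHEA change in Th17p minus that in Th17n was called for 14 members in Div.1 cells, 1 higher and 13 lower, against 15.9% of genes, and for 5 in Total cells, 1 higher and 4 lower, against 14.8% of genes. In Div.1 cells CHAC1 differed by -1.998 (SE 0.58, adjusted p 0.0106) and TRIB3 by -1.44 (SE 0.38, adjusted p 0.00471), and 7 of the lower members were synthetases. In Total cells NUPR1 differed by -1.85 (SE 0.43, adjusted p 0.00125). The 5 members called in Total cells were 3 without the Th17n methanol library of column 7 or the Th17p methanol library of column 9 or 10, and 8 without the Th17n methanol library of column 10. The Div.1 change minus the Total change was called for 2 members in Th17p cells, both higher, against 9.91% of genes, and for 7 in Th17n cells, all higher, against 6.79% of genes. The Th17p ones were NUPR1, by 1.61 (SE 0.43, adjusted p 0.00983), and CTH, by 1.23 (SE 0.31, adjusted p 0.00507). Those in Th17n cells were ASNS, by 1.35 (SE 0.30, adjusted p 0.00391), CTH and the synthetases EPRS, GARS, IARS, NARS and TARS. Rescaling gave 2 higher and 2 lower members in Th17p cells, with 487 genes higher and 679 lower against 598 and 460. It gave 4 higher members in Th17n cells, with 220 genes higher and 332 lower against 546 and 179. In Th17n cells 2 members were called without the methanol Total library of column 10, 4 without the DHEA Div.1 library of column 7, and 11 without the methanol Div.1 library of column 10.

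EGCG and DHEA were given at different doses with different solvents, so their changes stand side by side and were not tested against each other. For SESN2, which rose in all 4 settings with EGCG, the change with DHEA was -0.15 in Th17p Div.1, -0.24 in Th17p Total, 0.46 in Th17n Div.1 and 0.03 in Th17n Total cells. Of these the Th17n Div.1 value passed. Within a compound, the cell types and sorts have separate solvent groups, but each interaction uses the same libraries as the changes it compares.

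Without a compound, most members were higher in Th17p than in Th17n cells, in a comparison over both solvents. In Div.1 cells 27 of 36 were higher and 1 lower, against 34.9% and 25.7% of genes. In Total cells 23 were higher and 1 lower, against 30.9% and 26.5% of genes. The median change was 0.45 in Div.1 and 0.32 in Total cells, beside 0.04 and 0.02 over all genes. After rescaling, Div.1 cells had 27 higher and 2 lower. These comparisons use the solvent libraries that the compound changes are measured against.

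CTH set the cell types apart most. In Div.1 cells it had 15.1, 22.7, 13.7 and 20.3 TPM in Th17p DMSO and 15.4, 18.1, 13.9, 21.8 and 21.4 TPM in Th17p methanol libraries, against 0.992, 0.998, 3.699 and 0.709 TPM in Th17n DMSO and 0.797, 1.12, 0.591, 2.17 and 0.794 TPM in Th17n methanol libraries. In Total cells it had 27.9, 35.7, 25.1, 48.4 and 41.2 and 26.8, 30.1, 34.4, 37.9 and 33.4 TPM in the same Th17p groups, against 2.06, 2.35, 4.18, 0.965 and 2.23 and 2.07, 1.67, 1.87, 3.69 and 4.58 TPM in the Th17n groups. Every Th17p library was several-fold above every Th17n library, with log2 changes of 3.09 (SE 0.16, adjusted p 8.84e-27) and 3.34 (SE 0.15, adjusted p 4.86e-30). CHAC1 was also higher in Th17p cells but with overlap, and its libraries varied widely within each group. Its changes were 1.62 (SE 0.31, adjusted p 5.16e-06) and 1.18 (SE 0.29, adjusted p 0.000331), with group means in Div.1 cells of 11.3 ± 4.15 TPM (SD, n = 4) and 11.6 ± 4.79 TPM (n = 5) in Th17p cells, against 4.02 ± 3.03 TPM (n = 4) and 3.504 ± 3.44 TPM (n = 5) in Th17n cells.

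ALDH18A1 was the exception. It had 97.1, 105, 94.3, 117 and 107 TPM in Th17p DMSO and 85.7, 101, 97.4, 119 and 114 TPM in Th17p methanol libraries of Total cells, against 125, 133, 120.3, 128 and 136 TPM in Th17n DMSO and 142, 139, 140.4, 151 and 167 TPM in Th17n methanol libraries. All Th17p libraries were lower, with changes of -0.44 (SE 0.049, adjusted p 3.98e-12) in Div.1 and -0.41 (SE 0.046, adjusted p 4.44e-12) in Total cells. ATF4 was higher in Th17p cells by 0.63 and 0.70, and ASNS by 1.13 and 0.90. All 12 synthetases were higher in Th17p Div.1 cells and 11 in Th17p Total cells, the exception being MARS (adjusted p 0.975). The call of CARS in Total cells was lost without the Th17n methanol library of column 7 or 8 or the Th17n DMSO library of column 3. NUPR1 did not pass in either sort, at -0.07 and 0.33.

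**Figure D4:**
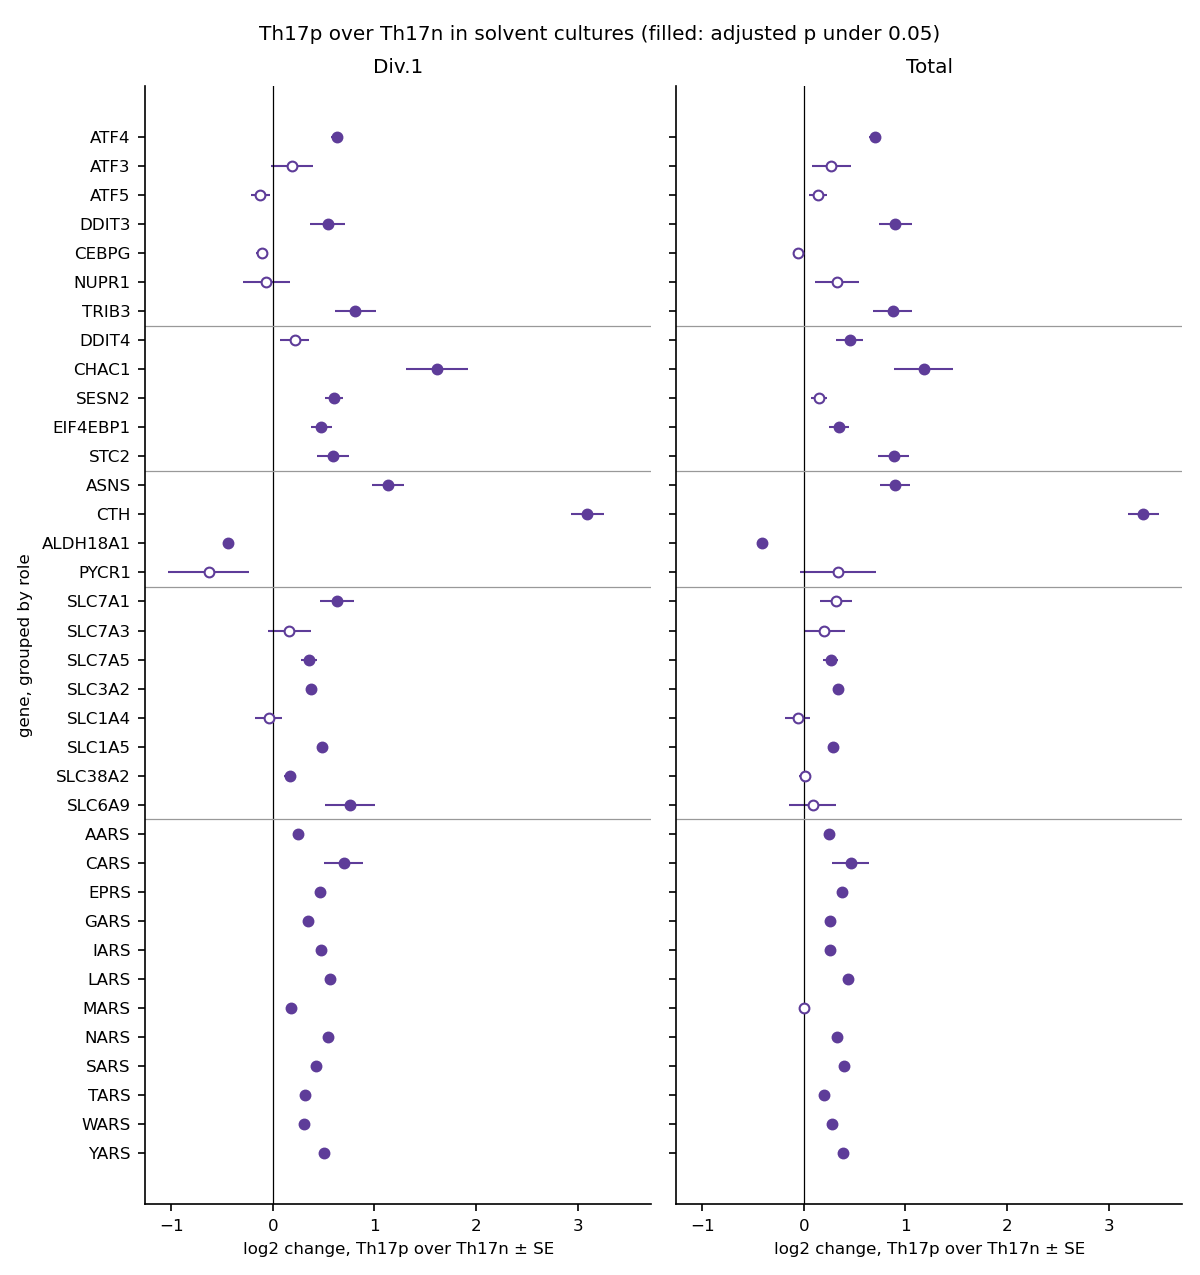
Log2 change ± SE of the 36 members, Th17p over Th17n, in solvent cultures of the Div.1 (left) and Total (right) sorts, grouped by role; filled points passed the test. CTH stands apart at 3.09 and 3.34, ALDH18A1 lies below 0 in both panels, and the synthetases lie at or above 0.

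Cells after 1 division had somewhat lower levels of several members than Total cells, in a comparison over both solvents. In Th17p cells 8 members were lower and 1 higher, against 10.8% and 8.63% of genes. In Th17n cells 16 were lower, against 16.1% of genes, and no member was higher by limma, against 5.8% of genes. No member was higher at an unadjusted limma p under 0.05 either, where the share of all genes was not computed. Rescaling left 13 lower in Th17n cells, with 1074 genes higher and 1188 lower, against 619 and 1718 as deposited. In Th17p cells CTH changed by -0.88 (SE 0.16, adjusted p 3.02e-05), with 15.1, 22.7, 13.7 and 20.3 TPM in DMSO and 15.4, 18.1, 13.9, 21.8 and 21.4 TPM in methanol Div.1 libraries, all below the Total libraries given above. NUPR1 averaged 1.91 ± 0.988 TPM (n = 4) and 2.99 ± 1.68 TPM (n = 5) in Div.1 cells, against 6.07 ± 4.79 and 7.23 ± 2.59 TPM (SD, n = 5 each) in Total cells with DMSO and methanol, a change of -1.10 (SE 0.22, adjusted p 0.000196) with overlap. SLC1A5 was the member that rose, by 0.18 (SE 0.039, adjusted p 0.000464), and its libraries overlapped. In Th17n cells ASNS averaged 21.2 ± 6.69 TPM (n = 4) and 18.8 ± 5.19 TPM (n = 5) in Div.1 cells, against 37.5 ± 7.27 and 32.01 ± 7.803 TPM (n = 5 each) in Total cells, and changed by -0.78 (SE 0.16, adjusted p 0.000105). CHAC1 changed by -0.86 (SE 0.30, adjusted p 0.0286) there. That call was lost without any of 6 single libraries, the Div.1 ones of DMSO column 1 and of methanol columns 6, 7 and 8 and the Total ones of DMSO column 4 and of methanol column 10, and with the groups fitted alone.

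Within groups, some members varied together. In the 38 solvent libraries, deviations of ASNS from its group mean had their highest Pearson r with those of EIF4EBP1 (0.861), TRIB3 (0.858), ATF4 (0.824), GARS (0.822), SLC3A2 (0.811), NARS (0.794) and CHAC1 (0.791), genes named for these values. In the 40 compound libraries the same r was 0.488 for EIF4EBP1, 0.118 for TRIB3, 0.337 for ATF4, 0.251 for GARS, 0.145 for SLC3A2, 0.305 for NARS and 0.352 for CHAC1. Over all 35 other members tested, r with ASNS had a median of 0.158 (-0.385 to 0.538) in compound libraries and 0.667 (0.0627 to 0.861) in solvent libraries. The difference between these coefficients was not tested, and the points share libraries, plate and depth. Levels also spread less in some compound groups. In Th17p Total cells TRIB3 ran from 1.31 to 2.35 TPM with EGCG and from 8.74 to 32.7 TPM with DMSO. The part of this spread in r was not tested. Over all 78 libraries the 66 pairs of synthetases had a median r of 0.549 (0.0846 to 0.816), the 21 pairs of regulators 0.165. In all 4 methanol groups the wells of columns 9 and 10 held the highest ATF4 levels. With the well column as a block, 326 of the 327 member changes called kept their call.

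**Figure D5:**
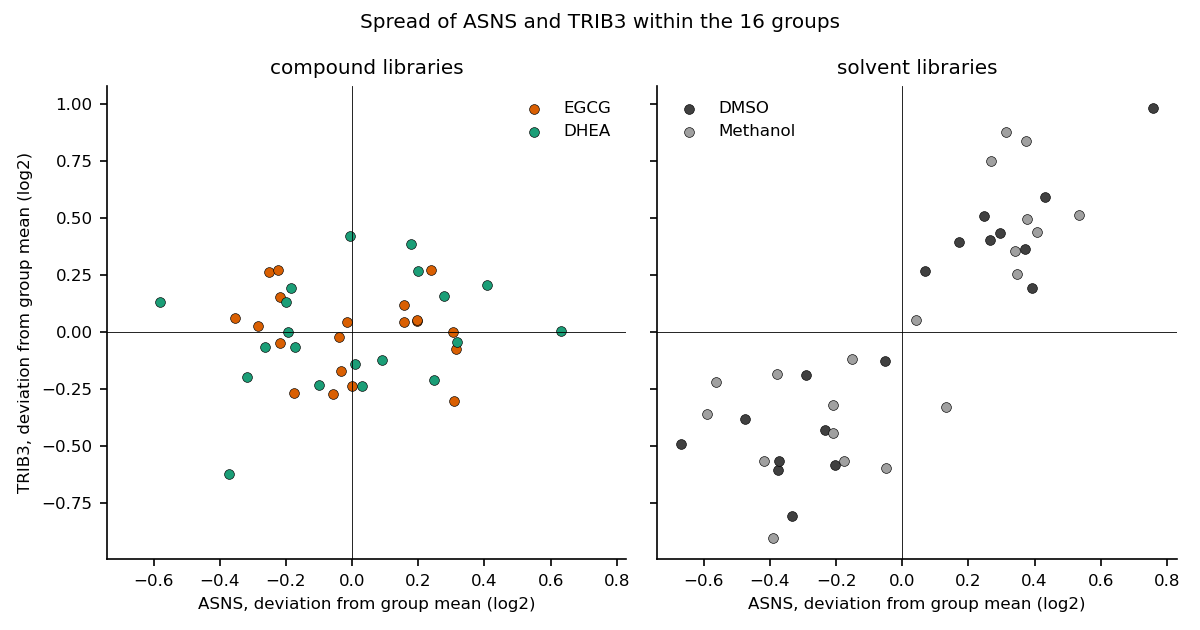
Deviation of TRIB3 (vertical) against that of ASNS (horizontal) from their group means in log2(TPM + 1), for the 40 compound libraries (left) and the 38 solvent libraries (right). The solvent points lie along a diagonal (r 0.858) and the compound points do not (r 0.118). Levels spread less in some compound groups, which r does not adjust for.

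Other genes of the pathway were followed in 6 lists, whose counts stand beside the same shares of all genes as the members'. With EGCG 33.7% of genes rose and 11.9% fell in Th17p Div.1, 30.1% and 14.9% in Th17p Total, 28.1% and 6.77% in Th17n Div.1, and 21.7% and 13.5% in Th17n Total cells. With DHEA 18.1% rose and 19.2% fell in Th17p Div.1, 20.9% and 26.8% in Th17p Total, 22.1% and 14.6% in Th17n Div.1, and 20.8% and 25.3% in Th17n Total cells. The serine and one-carbon enzymes that ATF4 also controls, of which 5 of 6 passed the filter, fell with EGCG, 5 of 5 in both Th17p sorts and in Th17n Total cells and 3 of 5 in Th17n Div.1 cells. PHGDH, which starts serine synthesis, averaged 379 ± 12.2 TPM with EGCG and 651 ± 47.8 TPM with DMSO in Th17p Total cells (SD, n = 5 each), a log2 change of -0.78 (SE 0.060, adjusted p 6.63e-18). SHMT2, a mitochondrial one-carbon enzyme, averaged 218 ± 11.6 TPM with EGCG and 361 ± 22.5 TPM with DMSO, a change of -0.72 (SE 0.052, adjusted p 2.63e-19). With DHEA, 4 of 5 fell in Th17p Div.1, 5 in Th17p Total, 2 in Th17n Div.1 and 5 in Th17n Total cells. PSAT1 averaged 335 ± 16.02 TPM with DHEA and 437 ± 35.8 TPM with methanol in Th17p Total cells, a change of -0.38 (SE 0.058, adjusted p 1.06e-07). In solvent cultures 5 of 5 were higher in Th17p than in Th17n Div.1 cells and 4 of 5 in Total cells.

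The 11 other cytosolic synthetase and scaffold genes were split with EGCG, 6 lower and 1 higher in Th17p Div.1, 7 lower and 1 higher in Th17p Total, 1 lower and 3 higher in Th17n Div.1 and 4 lower in Th17n Total cells. With DHEA 7, 9, 9 and 10 of the 11 fell in the same order. Of the 17 mitochondrial synthetases, 5 rose with EGCG in Th17p Div.1 and 4 in Th17p Total cells and none fell in either, shares of risers no higher than those of all genes, while in Th17n cells 2 fell and 1 rose in Div.1 and 3 fell and 1 rose in Total cells. IARS2 averaged 37.02 ± 7.305 TPM with EGCG and 24.4 ± 3.56 TPM with DMSO in Th17p Total cells, a change of 0.57 (SE 0.13, adjusted p 0.000348). With DHEA 6 of 17 fell and 2 rose in Th17p Div.1, 8 fell in Th17p Total, 7 fell and 1 rose in Th17n Div.1 and 8 fell in Th17n Total cells. YARS2 averaged 7.28 ± 1.19 TPM with DHEA and 27.3 ± 4.11 TPM with methanol in Th17n Total cells, a change of -1.78 (SE 0.23, adjusted p 1.41e-09).

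Of 14 chaperones and factors under XBP1 and ATF6, the other branches of the endoplasmic reticulum stress response, 4 fell and 3 rose with EGCG in Th17p Div.1, 9 fell and 2 rose in Th17p Total, 8 rose in Th17n Div.1 and 4 fell and 1 rose in Th17n Total cells. HERPUD1 averaged 65.2 ± 5.34 TPM with EGCG and 118 ± 23.7 TPM with DMSO in Th17p Total cells, a change of -0.82 (SE 0.10, adjusted p 6.17e-10). With DHEA 6 fell and 3 rose in Th17p Div.1, 9 and 3 in Th17p Total, 5 and 3 in Th17n Div.1 and 8 and 1 in Th17n Total cells. Of the 7 eIF2 kinase, phosphatase and substrate genes, at most 2 rose and at most 3 fell in each of the 8 compound comparisons. EIF2AK3 (PERK) averaged 3.71 ± 0.303 TPM with EGCG and 2.67 ± 0.172 TPM with DMSO in Th17p Total cells, a change of 0.36 (SE 0.11, adjusted p 0.0053). Of 11 other ATF4 targets, 6 passed the filter. With EGCG 1 rose and 2 fell in Th17p Div.1, 3 fell in Th17p Total, 2 rose in Th17n Div.1 and 1 rose and 1 fell in Th17n Total cells. With DHEA 2 rose and 1 fell, 1 rose and 2 fell, 2 rose and 2 fell, and 1 rose and 2 fell in the same order. In Th17p Total cells BCAT1, a branched-chain amino acid transaminase, averaged 72.8 ± 5.96 TPM with DHEA and 144 ± 6.24 TPM with methanol, a change of -0.98 (SE 0.065, adjusted p 1.24e-20). SQSTM1, the autophagy receptor, averaged 168 ± 14.9 TPM with DHEA and 117 ± 5.43 TPM with methanol, a change of 0.52 (SE 0.064, adjusted p 2.98e-10).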

How the data were processed

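RNA was captured by its polyA tail from cultured mouse T cells, per the labels' protocols. The authors deposited 1 table of TPM (transcript levels corrected for length and library total) for 20465 genes in 79 libraries, with trimming by Trimmomatic and quantification by kallisto against mm10, per the submitters' processing notes, whose versions are not given in the sources used here. TPM keeps no depth, so the depth of each library is unknown. Groups came from the sample titles. The library of well A4 went against its label and was left out of the 78 used.

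Genes at 1 TPM or more in at least 4 libraries (10672) were fitted on log2(TPM + 1) with limma 3.58.1 in R 4.3.3, with 16 group means, a mean-variance trend and Benjamini-Hochberg adjustment over all genes, and called at an adjusted p under 0.05. Of 20 comparisons, 8 set a compound against its solvent and 8 were interactions. Beyond the design text, the labels tie no library to a mouse, and the main fit does not use the well column. The p-values therefore measure the spread between these libraries. The members and lists were chosen with earlier results of these data known. Values per library are given for the called members with the largest falls (up to 6) and rises (up to 4) with each compound in Th17p Total cells, for the 2 with the largest change in each direction elsewhere, each averaging 5 TPM or more where it was higher, and always for ATF4, DDIT3, ASNS and CHAC1; pathway genes named are among the 3 with the smallest p of their list. SLC6A9 was added after its values were seen. Scripts were tested on simulated data. Alternatives were a pseudocount of 0.1, no filter, rescaling by median ratio, groups fitted alone, the well column as a block, A4 kept, wells of columns 1 and 10 left out, and each library left out. Some marker genes are not reported here.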

Additional observations from a re-analysis of the deposited data

Results flagged for a closer look

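Of 149 tests of 1 library standing apart from its group, 11 passed Dixon's 95% limit, and chance passes about 1 in 20. CHAC1 was 1.09 TPM in well D1 of Th17p EGCG Total cells, the others reaching 0.566 TPM. ATF4 was 299.7 TPM in well H1 and SLC1A5 201 TPM in well H5 of Th17n EGCG Total cells, with other libraries up to 276 and 189.8 TPM. DDIT3 was 5.25 TPM in well G5 of Th17n EGCG Div.1 cells, the others being 11.3 TPM or more. ATF3 was 5.25 TPM in well B4 of Th17p DMSO Total cells, against at most 2.45 TPM. CTH was 3.70 TPM in well E3 of Th17n DMSO Div.1 cells, against at most 0.998 TPM. DDIT3 was 17.3 TPM in well C6 of Th17p DHEA Div.1 cells, the others being 24.96 TPM or more. In Th17n DHEA Total cells YARS was 58.7 TPM in well H9, below 68.2 TPM in the next, and ASNS 32.9 TPM in well H7, above 21.03 TPM in the next. YARS was 125.8 TPM in well F10 of Th17n methanol Total and 100.8 TPM in well E10 of Th17n methanol Div.1 cells, above 103.9 and 92.5 TPM in the next.

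Some changes differed between cell types or sorts by the interaction term of the limma fit, each as a log2 difference. The EGCG change in Th17p minus that in Th17n Total cells was -1.44 for TRIB3, -0.81 for SLC1A4, 1.14 for ATF3 and 0.93 for DDIT4. In Div.1 cells it was -1.33 for SLC1A4, -0.54 for SLC38A2, 1.01 for CTH and 0.93 for DDIT4. The EGCG change in Div.1 minus that in Total cells was 0.79 for SLC1A4 and 0.62 for SESN2 in Th17n cells. The DHEA change in Th17p minus that in Th17n was -1.85 for NUPR1 and -1.17 for TRIB3 in Total cells, and -1.998 for CHAC1 and -1.44 for TRIB3 in Div.1 cells. The DHEA change in Div.1 minus that in Total cells was 1.61 for NUPR1 and 1.23 for CTH in Th17p cells, and 1.35 for ASNS and 0.35 for IARS in Th17n cells. The calls of ATF3, of CTH and DDIT4 in Div.1 cells, of SLC1A4 between sorts and of TRIB3 with DHEA in Total cells were each lost without at least 2 single libraries.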

How the results depend on the processing

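Of 327 member changes called, the same call held for 315 with a pseudocount of 0.1, 304 without the filter, 314 after rescaling, 296 with groups fitted alone, 326 with the well column as a replicate block, 301 without columns 1 and 10, and in 4244 of 4513 cases with 1 library left out, none of these changing sign. With well A4 kept, 270 held, and CTH with EGCG in Th17n Div.1 cells turned to -0.11. The cause of these losses was not tested.

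These counts of members moved by over 1.5 times. With A4 kept they were 7 for Div.1 against Total in Th17n cells (16 without it), 5 for EGCG by cell type in Div.1 (12), 0 for EGCG by sort in Th17n (5), 7 for DHEA by cell type in Div.1 (14), and 1 and 2 for DHEA by sort in Th17p (2) and Th17n (7). Groups fitted alone gave 3 for EGCG by sort in Th17p (0) and 1 for DHEA by sort in Th17n. The replicate block gave 2 and 11 there. Without the filter, EGCG by sort in Th17n gave 3. Rescaling gave 4 for DHEA by sort in Th17p and 4 in Th17n. Leaving out 1 library gave 0 to 1 and 3 to 5 for EGCG by sort in Th17p and Th17n, 3 to 8 for DHEA by cell type in Total, and 2 to 3 and 2 to 11 for DHEA by sort in Th17p and Th17n. Well columns are not tied to mice by the labels: over 266 pairs sharing a column the median correlation of deviations was 0.0714 (-0.044 to 0.315, 86 over 0.1), and 77 of 78 libraries correlated best with their own column, a hint from the data and not the design. TPM keeps no depth, so precision at low levels could not be set.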

Other observations

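The library of well A4, labelled Th17n DMSO Div.1 and left out, had 39.5 TPM of CTH, against 0.709 to 3.70 TPM in the other libraries of that label and 13.7 to 22.7 TPM in Th17p DMSO Div.1 libraries. CHAC1 was 31.6 TPM in A4, against 0.468 to 7.72 TPM in its label's others and 6.35 to 15.6 TPM in the Th17p ones. TRIB3 was 38.1 TPM in A4, against 4.44 to 8.12 TPM and 6.302 to 15.3 TPM in the same order, and ASNS 109 TPM, against 14.5 to 27.2 TPM and 31.4 to 55.6 TPM. These 4 members thus lay above both groups. FOXP3, the regulatory T cell factor, was 0.394 TPM in A4, against 71.5 to 135.5 TPM in its label's others and 0.0385 to 0.766 TPM in the Th17p ones. IL22 was 388 TPM in A4, against 0.303 to 7.36 TPM and 264 to 380.1 TPM, and IL9 4.09 TPM, against 1177 to 1874 TPM and 3.202 to 6.46 TPM. FOXP3 and IL9 in A4 lay within the range of the Th17p libraries, and IL22 lay slightly above it. By the titles, wells A1, A2, A3 and A5 beside it were Th17p DMSO Div.1. The other Th17n DMSO Div.1 libraries were in wells E1 to E4. Whether the label of A4 was exchanged was not tested.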
